A study of Mus musculus with 26 samples.

Results

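The cytosolic ribosome is built from ribosomal RNA and a set of small, mostly basic proteins that are named by the subunit they belong to: Rpl for the large subunit and Rps for the small subunit. The transcripts of these proteins were followed through a 5-ethynyluridine (5-EU) chase in mouse oligodendrocyte progenitor cells (OPCs) and in oligodendrocytes (OLs), the cells that make myelin. Transcripts were chosen by gene symbol alone: Rpl or Rps followed by a number, with Rplp0, Rplp1, Rplp2 and Rpsa added, and with kinases of the Rps6k series and pseudogene symbols left out. This gave 82 of the 10104 transcripts listed for either cell type, and all 82 were among the 8177 listed for both. Of these, 46 encode core proteins of the large subunit, 31 encode core proteins of the small subunit and 5 are paralogs or retrogenes of core proteins (Rpl7l1, Rpl22l1, Rpl36al, Rps27l and Rps27rt). A core protein with no row in the tables, such as one named by another symbol, was not counted, and Fau and Rack1, which encode ribosomal proteins under other names, were described separately.

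Ribosomal protein mRNAs are among the most abundant in growing cells. Most of them begin with a 5′ terminal oligopyrimidine (TOP) motif, a C followed by a run of pyrimidines at the first transcribed bases, through which mTOR signalling and the RNA-binding protein Larp1 control their translation and storage. Such mRNAs are widely regarded as long-lived. Because every ribosome needs 1 copy of most of these proteins, the genes are often described as a regulon that moves together.

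OPCs of strain 129S/SvEv had been derived from epiblast stem cells and were kept in growth medium with bFGF and PDGFA. OLs had been made from OPCs in medium with T3 and other factors, and both cell types took up 5-EU for 24 h, before a chase with uridine. The 25 libraries come from 3 OPC replicates and 2 OL replicates with chase times of 0, 1, 2, 4 and 6 h, and labelled RNA was captured through biotin on streptavidin beads. An OPC control with no biotin reaction was not analysed here, so background on the beads was not subtracted.

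The values are FPKM (fragments per kilobase of a transcript, set against all mapped fragments of a library), scaled to spike-in RNA by the study, and half-lives in hours with a ceiling of 6 h. Read numbers are not given with these values, so their depth is unknown. At 0 h the OL markers followed the labels, and the summed OPC markers did not. Of the myelin and OL genes, 10 of 10 were listed in OLs, with a summed 0 h level of 6443 and 2983 FPKM, against 3 of 10 listed in OPCs with 39.2 to 57.5 FPKM. The 5 OPC genes summed to 230 to 349 FPKM in OPCs and 519 to 547 FPKM in OLs, where Gpr17, a gene of cells in transition, made up 299 to 323 FPKM. Pdgfra, the PDGFA receptor of OPCs, was also higher in OLs, at 66.9 and 43.9 FPKM against 11.5 to 26.5 FPKM in OPCs. Olig1, Olig2 and Sox10 summed to 785 to 1412 FPKM in every library. Of the astrocyte list 2 of 5 genes were listed in OPCs and 4 of 5 in OLs (267 to 436 FPKM), of the neuron list 2 of 5 and 3 of 5 (81.8 to 203 FPKM), and no microglial or pluripotency gene was listed. The part of these other cells in the results on ribosomal protein transcripts was not tested.

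The start sites of some of these genes show the pyrimidine run for which the class is known. The sequences below run from 12 bases before the RefSeq start base to 17 after it, in GRCm38.p6, 5′ to 3′ on the strand of the gene, and capitals mark the longest run of C and T that begins with C within 10 bases of the start. Shown are 7 genes described below that have such a run of at least 5 bases, and Rpl7l1, which has none and stands apart in the chase.
Rps6, chr4:86857350-86857379, minus strand: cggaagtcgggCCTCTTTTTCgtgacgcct
Rps24, chr14:24490666-24490695, plus strand: gcgctggggtCCTTCCTTgcgcgttgatat
Rps26, chr10:128626489-128626518, minus strand: gggcaagccgccggatCCTCTTTCgagtct
Rpl13a, chr7:45128728-45128757, minus strand: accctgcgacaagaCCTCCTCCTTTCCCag
Rplp2, chr7:141447639-141447668, plus strand: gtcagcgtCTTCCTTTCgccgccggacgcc
Rps9, chr7:3704029-3704058, plus strand: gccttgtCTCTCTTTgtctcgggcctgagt
Rpl38, chr11:114668568-114668597, plus strand: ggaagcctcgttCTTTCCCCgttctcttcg
Rpl7l1, chr17:46782639-46782668, minus strand: aggctgcgcaagcgcagtagctgaagcacc

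A promoter sequence was matched by symbol for 62 of the 82 genes. A run of at least 5 bases, searched on the gene's strand only, was found in 34 of the 62 (54.8%), against 30.8% of all 27025 genes in the table. A run of at least 8 bases was found in 21 of the 62 (33.9%), against 8.03% of all genes. The annotated start base can lie away from the base at which transcription begins, so a gene without a run in this window may still have a TOP motif.

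The transcripts are short. Their median coding length was 456 bases, against 1371 bases over all transcripts listed for both cell types, and their median annotated 3′ UTR was 68.5 bases, against 1165 bases. In 52 of the 82 the 3′ UTR was under 100 bases. Their proteins are rich in lysine (a median of 12.2% of codons, against 5.74% over all transcripts) and arginine (9.37%, against 5.56%). The study asked how the lysine codon AAA and the phenylalanine codon UUU bear on mRNA stability in the 2 cell types. AAA made up a median of 30.4% of lysine codons in the ribosomal protein transcripts and 37.1% over all transcripts, and UUU a median of 34.3% of phenylalanine codons against 44.6%. Rpl41 is the extreme case. It encodes the smallest protein of the set, has 7 AAG and 0 AAA codons, and is shown here for its codons, as the spliced coding sequence from GENCODE M21 (GRCm38, transcript at chr10:128548114-128549305, minus strand), with lysine codons in capitals.
Rpl41: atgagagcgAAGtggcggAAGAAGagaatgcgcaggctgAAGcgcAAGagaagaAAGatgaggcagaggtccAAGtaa

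Reads of ribosomal protein genes can align to more than 1 place, because the mouse genome holds many processed pseudogenes of them. In GENCODE M21 a median of 58.9% of the 30-base words of a ribosomal protein transcript also occurred in a transcript of another gene, and up to 98.7% for Rps27. The median number of such other genes was 16, of which 15 were annotated as pseudogenes. How the deposited values divide such reads is not given in the sources used here, so the level of any single transcript with a high share is uncertain. The share did not follow the level (Spearman's rho across the 82 transcripts 0.0096) or the difference between the cell types at 0 h (rho -0.060). These correlations describe transcripts of the same libraries and carry no p-value. The 30 transcripts with at most 50% of their words shared had a median 0 h difference of -0.83, with 19 called lower in OLs. The 52 above 50% had -0.79, with 30 called lower. Of all transcripts, 15.8% were called lower in OLs in the same fit.

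At 0 h, after the 24 h of labelling, ribosomal protein transcripts stood near the top of the labelled RNA in both cell types. The median transcript of the set lay at the 97.6th to 97.8th percentile of all transcripts in the 3 OPC libraries and at the 96.8th to 96.9th in the 2 OL libraries. The set held 8.56%, 6.84% and 7.37% of summed FPKM in the OPC libraries and 5.50% and 4.87% in the OL libraries, each in replicate order. All 3 OPC shares were above both OL shares.

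Levels differed widely between core proteins. Mean 0 h levels of core proteins spanned 49.3-fold in OPCs and 34.8-fold in OLs. Rplp1, Rpl8, Rps9 and Rps21 were among the 5 highest. Rplp1, 1 of the acidic stalk proteins that recruit elongation factors, was at 1653, 994 and 1207 FPKM in OPCs and at 677 and 583 FPKM in OLs. Rpl8, a protein near the peptidyl transferase centre, was at 1601, 1024 and 1167 FPKM in OPCs and at 678 and 616 FPKM in OLs. The 5 lowest were Rpl29, Rpl21, Rpl7l1, Rpl28 and Rpl36al. Rpl29, a protein of the large subunit, was at 30.3, 25.4 and 22.5 FPKM in OPCs and at 20.3 and 17.5 FPKM in OLs. Of its 30-base words, 79.1% occurred in other genes, and for Rpl21, at 36.2 to 39.0 FPKM in OPCs, the share was 27.5%. The order of levels was close to the same in both cell types, with a Pearson correlation of 0.98 and a Spearman correlation of 0.96 across the 82 log2 means, which share their libraries' transcript lengths and alignability. By subunit, the median of the mean levels was 295 FPKM for the large and 393 FPKM for the small subunit in OPCs, and 177 and 207 FPKM in OLs.

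**Figure D1:**
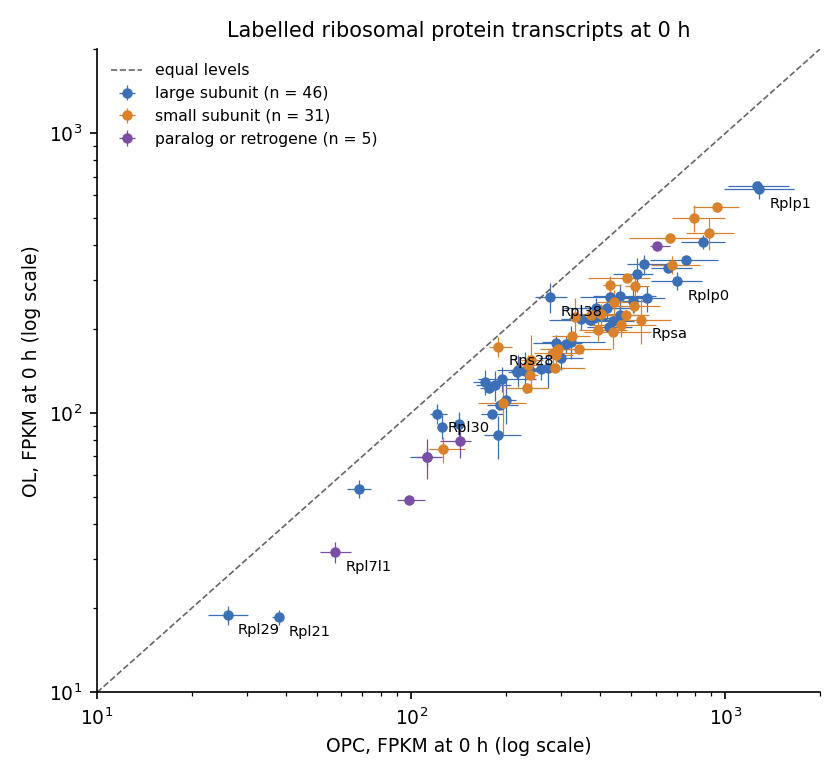
Mean level at 0 h of each of the 82 transcripts in OPCs (horizontal axis, FPKM, n = 3) and OLs (vertical axis, FPKM, n = 2), both on log scales, with bars from the lowest to the highest replicate and colours for the subunit. All 82 points lie below the dashed line of equal levels.

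The comparison of OLs with OPCs at 0 h asked which transcripts made up more or less of the labelled RNA once the cells had differentiated. All 82 ribosomal protein transcripts had a lower mean in OLs, and for 80 of them both OL values lay below all 3 OPC values, which was so for 31.4% of all transcripts. None had both OL values above all OPC values, against 28.0%. The median difference, OL minus OPC, was -0.80 in log2(FPKM + 1), with the middle 50% of transcripts from -0.98 to -0.67 and a median standard error of 0.23. The median over all 8177 transcripts was -0.01. In the limma test 49 of the 82 were lower in OLs at an adjusted p under 0.05, against 15.8% of all transcripts, and 0 were higher, against 13.8%. The large subunit gave 24 of 46 and a median of -0.79, the small subunit 22 of 31 and a median of -0.83. The study scaled FPKM to the spike-ins at its time points, but whether the deposited 0 h columns carry that scale is not settled here, so differences at 0 h are not read as amounts per cell, and fewer cells of a type and less RNA per cell cannot be told apart in such bulk samples.

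Among the 10 transcripts with the largest called decrease, Rpsa, which encodes the small-subunit protein also known as the laminin receptor precursor, was at 673, 427 and 523 FPKM in OPCs and at 255 and 176 FPKM in OLs. The groups did not overlap, and the log2 difference was -1.32 (SE 0.28, adjusted p = 0.011). Rplp0, the base of the stalk that carries Rplp1 and Rplp2, was at 842, 580 and 685 FPKM in OPCs and at 319 and 275 FPKM in OLs, a log2 difference of -1.23 (SE 0.24, adjusted p = 0.0082). Rpl12, which binds next to the stalk, was at 224, 170 and 174 FPKM in OPCs and at 97.6 and 68.6 FPKM in OLs, a difference of -1.19 (SE 0.25, adjusted p = 0.011). The other stalk transcripts had smaller differences. Rplp1 differed by -1.0 (SE 0.27, adjusted p = 0.026), while for Rplp2 the value was -0.69 (SE 0.26, adjusted p = 0.077), from 482, 307 and 372 FPKM in OPCs to 257 and 216 FPKM in OLs. The difference between these stalk transcripts was not tested.

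Also among these 10 were Rps2, Rpl3, Rps4x, Rps16, Rpl39 and Rpl41, with log2 differences from -1.14 to -1.05. Rpl3 lies at the peptidyl transferase centre and Rpl39 in the wall of the exit tunnel. Rpl41, whose coding sequence is given above, fell from 949, 576 and 721 FPKM in OPCs to 348 and 358 FPKM in OLs, a difference of -1.05 (SE 0.26, adjusted p = 0.020). In each of the 10 transcripts every OL value was below every OPC value, and OPC replicate 1 was the highest of the 5 libraries.

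At the other end, Rpl38, a large-subunit protein known for its part in the translation of Hox mRNAs, was at 314, 268 and 247 FPKM in OPCs and at 292 and 227 FPKM in OLs. The groups overlapped, with a log2 difference of -0.09 (SE 0.23, adjusted p = 0.78). Rps28 was at 178, 183 and 209 FPKM in OPCs and at 187 and 159 FPKM in OLs, again with overlap (-0.14, SE 0.22, adjusted p = 0.66). These were the only transcripts of the 82 whose groups overlapped, and both were singled out after their values were seen. The next smallest differences, -0.29 for Rpl30, -0.34 for Rpl28 and -0.41 for Rpl5, did not pass the test either.

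**Figure D2:**
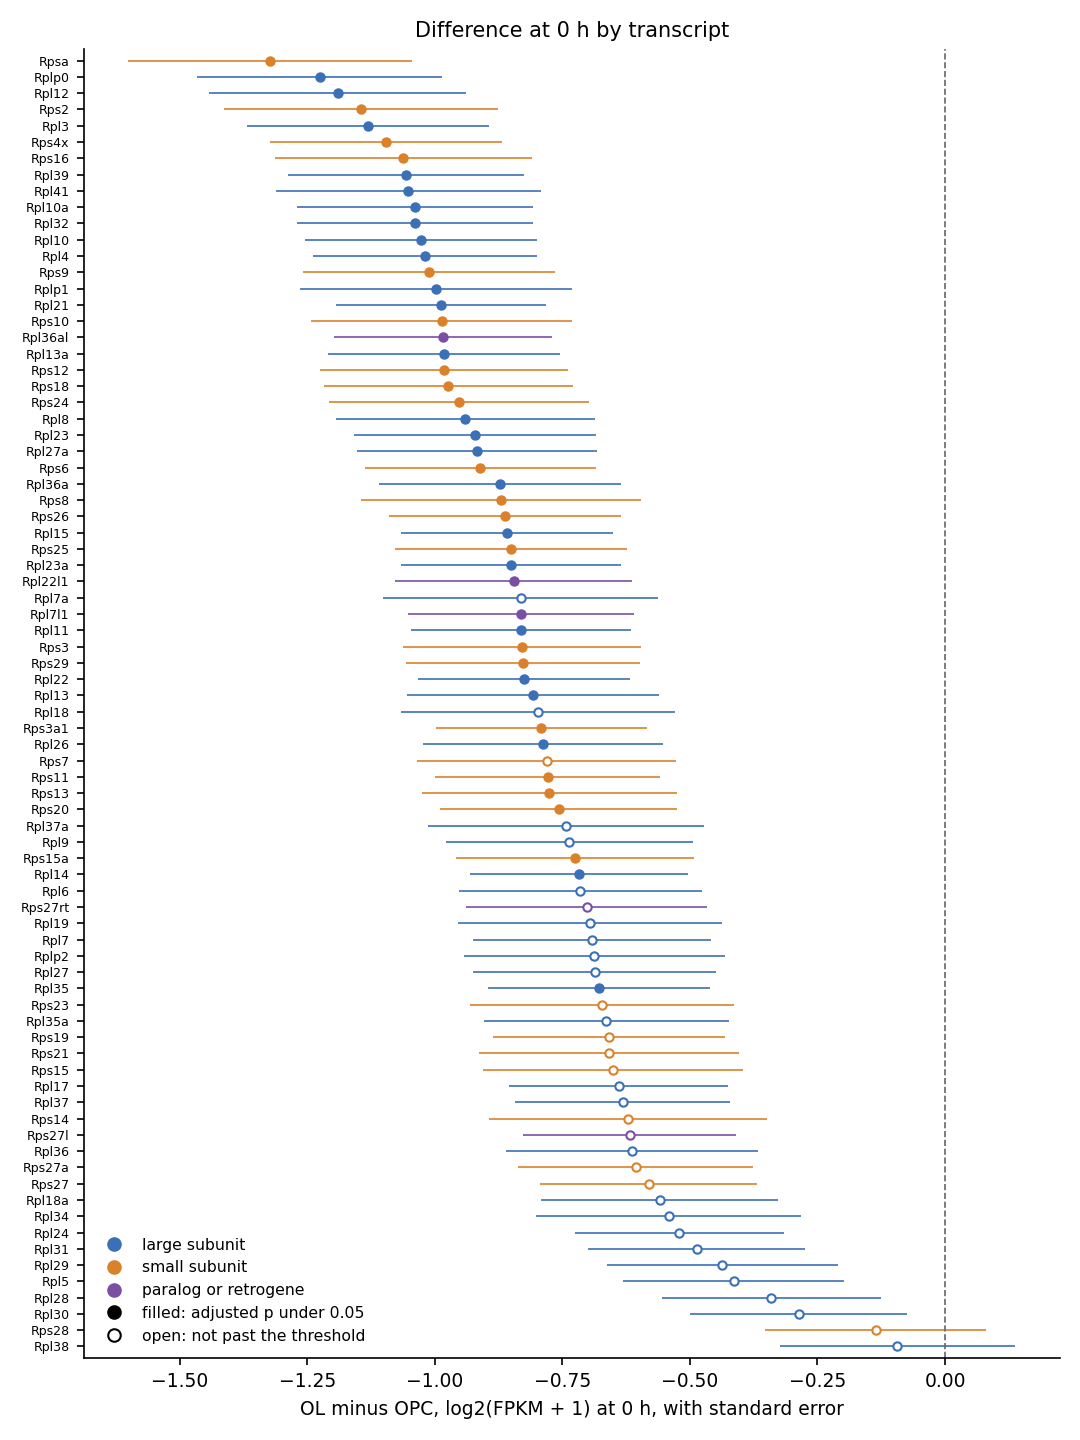
Difference at 0 h between OLs (n = 2) and OPCs (n = 3) in log2(FPKM + 1) for 80 of the transcripts, with its standard error from limma. All points lie left of 0, from -1.32 for Rpsa to -0.09 for Rpl38, and filled points mark the 47 of these past an adjusted p of 0.05.

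Among the members chosen for known roles, Rps6, the substrate of the S6 kinases, was at 272, 201 and 227 FPKM in OPCs and at 128 and 117 FPKM in OLs (-0.91, SE 0.23, adjusted p = 0.020). Rpl11 and Rpl5 form a complex with 5S ribosomal RNA that also restrains Mdm2. Rpl11 was lower in OLs (-0.83, SE 0.22, adjusted p = 0.024), while for Rpl5 the values of 182, 176 and 158 FPKM in OPCs and 142 and 116 FPKM in OLs gave an adjusted p of 0.18. Rps3, at the mRNA entry channel, fell by 0.83 (SE 0.23, adjusted p = 0.031). Of 3 genes taken here from the longer list mutated in Diamond-Blackfan anaemia, Rps24 (-0.95, adjusted p = 0.026) and Rps26 (-0.86, adjusted p = 0.025) were lower and Rps19 had a difference of -0.66 that did not pass (adjusted p = 0.062). Rpl13a, which can leave the ribosome to silence mRNAs of inflammation, was lower by limma (-0.98, SE 0.23, adjusted p = 0.016). Rps27a, which is made as a fusion with ubiquitin, had -0.61 (adjusted p = 0.081) and Rps14 had -0.62 (adjusted p = 0.12).

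Pairs of paralogs kept their order in both cell types. Rpl22 was at 301 to 321 FPKM in OPCs and 163 to 189 FPKM in OLs, and Rpl22l1 at 124 to 156 FPKM and 69.0 to 89.6 FPKM, and both were called lower (-0.83 and -0.85). Rpl36a was at 193 to 216 FPKM in OPCs and its paralog Rpl36al at 90.5 to 111 FPKM, with differences of -0.87 and -0.98. Rps27l, a p53 target, was above Rps27 in both cell types, at 576 to 669 FPKM against 408 to 465 FPKM in OPCs, and neither difference between cell types passed the test (-0.62 and -0.58). Rpl7 was at 488 to 658 FPKM in OPCs and Rpl7l1, which takes part in ribosome assembly, at 51.4 to 64.5 FPKM. Rpl39l, Rpl3l, Rpl10l and Rps4l had no row.

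The number of calls depended on single libraries. Per the study the OL replicates match 2 of the OPC replicates, but which OL replicate goes with which OPC replicate is not given in the sources used here. A fit that takes equal replicate numbers as a block called 26 of the 82 lower, against 11.8% of all transcripts, with a median of -0.83. With 1 replicate left out in turn, the number of transcripts called lower ranged from 1 (without OL replicate 2, against 8.50% of all transcripts) to 59 (without OPC replicate 2, against 15.9%). It was 40 without OPC replicate 1, against 16.2%. It was 7 (8.54% of the set) without OPC replicate 3, against 7.84%, and 6 (7.32%) without OL replicate 1, against 5.83%, so in 3 of these 5 fits the share called was near or below that of all transcripts. The median difference ranged from -0.93 to -0.67. At least 81 of the 82 differences were negative in each of these fits. OPC replicate 1 had the highest ribosomal protein share of the 3 OPC libraries at 0 h. Quantile normalization, which compares ranks, gave 18 called lower (near the share of all transcripts, 17.4%) and a median of -0.38, and 14 of the 82 differences then turned positive, among them Rplp1 (0.08), Rpl8 (0.15) and Rps9 (0.06), none past the test.

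Other TOP mRNAs and other transcripts of the translation apparatus were compared at 0 h against the same shares of all transcripts, 15.8% lower and 13.8% higher in OLs. Of the other 18 TOP mRNAs listed, 10 were lower and 1, Eif3f, was higher (0.89, adjusted p = 0.021), with a median of -0.74. The elongation factor Eef1a1 fell from a mean of 2087 FPKM in OPCs to 1043 FPKM in OLs (-1.0, SE 0.22, adjusted p = 0.012). Of the ribosomal proteins outside the symbol rule, Rack1 (-1.27, adjusted p = 0.0090) was lower and Fau had -0.67 (adjusted p = 0.10). The 72 mitochondrial ribosomal protein transcripts, which belong to a separate ribosome, had a median of -0.31 with 5 called lower and 0 higher. The 58 translation factors with Eif or Eef symbols had a median of -0.37, with 16 lower and 6 higher.

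The half-lives asked how fast the labelled transcripts were lost after the chase began. For 81 of the 82 ribosomal protein transcripts the deposited half-life was at the 6 h ceiling in all 5 replicates, against 16.1% of the 8112 transcripts with 5 half-lives. In single replicates the ceiling held for 24.5% to 42.3% of all transcripts. A ceiling gives only that the fitted half-life was at least 6 h, so it cannot rank these transcripts or compare the cell types, and limma called 0 of 82 longer and 0 shorter in OLs, with 0 at an unadjusted p under 0.05, against 3.39% of all transcripts longer and 0.148% shorter.

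The exception was Rpl7l1 (GRCm38 chr17:46773907-46782656, minus strand, 7 exons), whose half-lives were 1.54, 1.96 and 1.46 h in OPCs and 1.86 and 3.12 h in OLs. The groups overlapped, with a log2 difference of 0.55 (SE 0.30, adjusted p = 0.41). Its FPKM fell from 64.5 to 4.69, from 51.4 to 5.08 and from 56.0 to 6.67 between 0 and 6 h in OPCs, and from 28.9 to 3.90 and from 34.6 to 9.11 in OLs. Its annotated 3′ UTR was 1841 bases, and its start-site sequence had no pyrimidine run of at least 5 bases. Among transcripts at the ceiling in all 5 replicates, Rps20 had an annotated 3′ UTR of 3167 bases. The longest runs of Rpl11 and Rpl23, also at the ceiling, were 2 bases. Whether either trait bears on the loss of Rpl7l1 was not tested. Its near relative Rpl7 was at the ceiling in every replicate.

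The levels during the chase showed what lies behind the ceiling. In each replicate the set ended at or above its start: at 6 h the median transcript of the set was at 109%, 181% and 130% of its own 0 h level in OPCs and at 107% and 113% in OLs, in replicate order. Over all 8177 transcripts the medians were 14.8%, 11.3% and 18.1% in OPCs and 33.03% and 39.4% in OLs. The 6 h level was above the 0 h level in all 5 replicates for 32 of the 82, against 2.49% of all transcripts. Percentages of 0 h and slopes rest on a scale from the spike-ins that all transcripts of a library have in common, and if the 0 h columns do not carry that scale, each such value that uses 0 h sets 2 scales side by side.

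The path to 6 h differed between replicates. At 1 h the median of the set was 65.0%, 105% and 73.3% of 0 h in OPCs and 65.6% and 105% in OLs, in replicate order. The medians over all transcripts at 1 h were 68.1%, 95.4%, 75.6%, 64.9% and 96.5% in the same order, so the libraries that were low for the set were low for all transcripts. At 2 h the set was at 80.6%, 113%, 83.7%, 105% and 84.3%, and at 4 h at 111%, 124%, 127%, 127% and 105%. OPC replicate 2 stood apart at 6 h, with 81 of 82 transcripts above their 0 h level, while the count was 57 in OPC replicate 1, 75 in OPC replicate 3, and 54 and 56 in OLs.

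**Figure D3:**
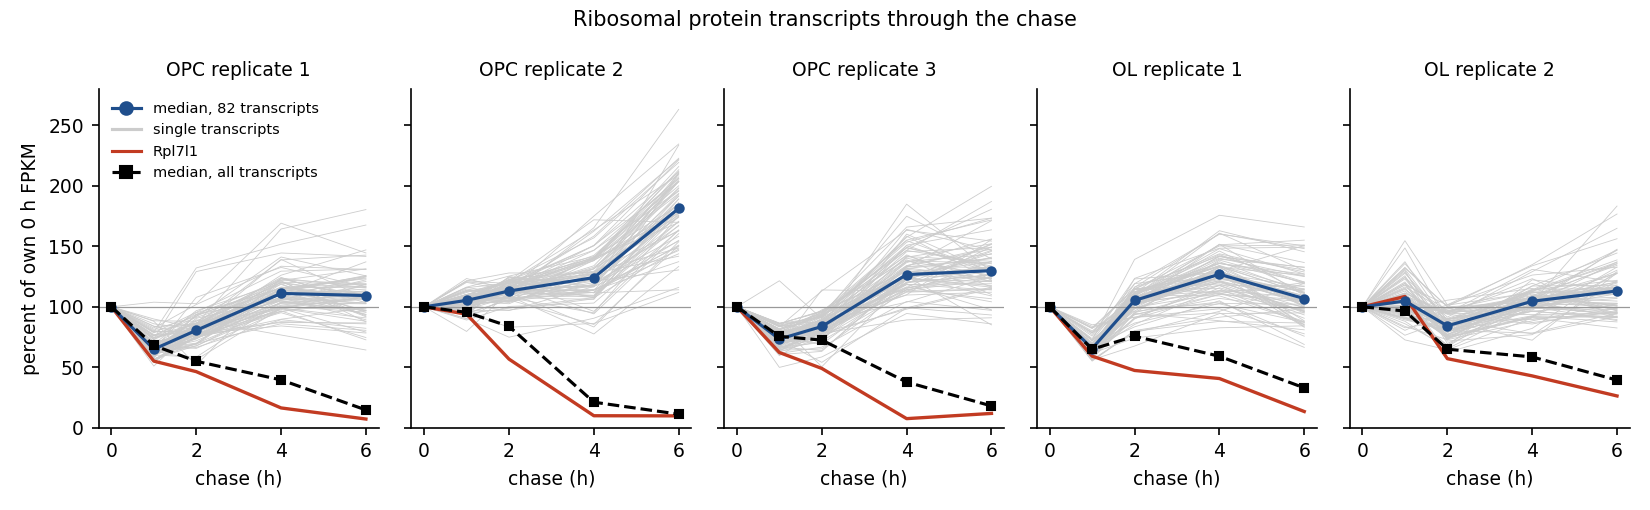
Level through the chase in percent of each transcript's own 0 h FPKM (vertical axis) against hours of chase, in 1 panel per replicate, with single ribosomal protein transcripts in grey, their median in blue, Rpl7l1 in red and the median of all 8177 transcripts in black. The blue medians end at 107% to 181%, the black medians at 11.3% to 39.4%, and Rpl7l1 at 7.27% to 26.3%.

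A share of each library's summed FPKM does not depend on the spike-in scale. The share held by the 82 transcripts rose from 8.56% to 15.4%, from 6.84% to 18.9% and from 7.37% to 15.3% between 0 and 6 h in OPCs, and from 5.50% to 8.53% and from 4.87% to 8.02% in OLs. It was higher at each time than at the one before in all 5 replicates. At 6 h the 3 OPC shares lay above both OL shares. Summed FPKM over all 8177 transcripts was lower at 6 h in each replicate, at 387785 to 428719 at 0 h and 261954 to 265634 at 6 h in OPCs.

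**Figure D4:**
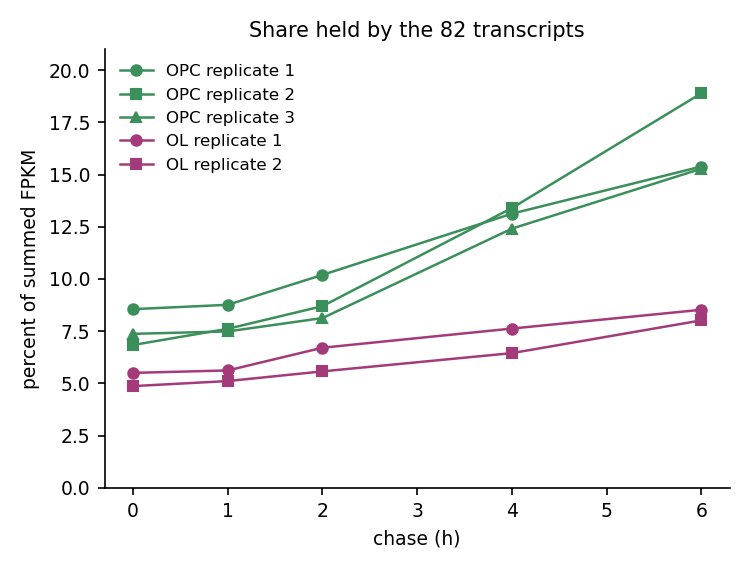
Percent of summed FPKM over the 8177 transcripts that the 82 ribosomal protein transcripts held (vertical axis) at each hour of chase, for 3 OPC replicates in green and 2 OL replicates in purple. The share rose in every replicate, to 15.3% to 18.9% in OPCs and 8.02% to 8.53% in OLs at 6 h.

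A slope of log2(FPKM + 1) per hour, fitted over the 15 OPC libraries with an intercept for each replicate, was positive for 81 of the 82 in OPCs, with a median of 0.11 and a median standard error of 0.040. The median over all OPC transcripts was -0.38. By limma 60 of the 82 rose in OPCs, against 4.31% of all 8530 transcripts, and 1, Rpl7l1, fell (-0.59, SE 0.057, adjusted p = 1.3e-07), against 81.7%. In the 10 OL libraries the median slope was 0.050 (median standard error 0.046), against -0.20 over all 9751 transcripts. Only Rpl39 rose in OLs (0.11, adjusted p = 0.041), against 1.50% of all transcripts, a call that was lost with a pseudocount of 0.1, without the 6 h or the 0 h libraries, with no replicate block and without either OL replicate. Without the 0 h libraries 1 of the 82 was called rising in OLs, against 1.14% of all transcripts. In the main fit only Rpl7l1 fell in OLs (-0.35, SE 0.046, adjusted p = 1.3e-05), against 68.4%.

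The highest slopes in OPCs were 0.18 for Rps21, Rpl31 and Rps28 alike. Rps28, which did not differ between cell types at 0 h beyond its spread, was at 168%, 263% and 156% of its 0 h level at 6 h in OPCs and at 120% and 113% in OLs. Rps21 was at 147%, 235% and 187% in OPCs and at 148% and 115% in OLs, with every value above 100%. The stalk transcripts had OPC slopes of 0.15 for Rplp0, 0.17 for Rplp1 and 0.17 for Rplp2, all called, and OL slopes of 0.10, 0.094 and 0.11, none called. Rpsa had 0.13 in OPCs (adjusted p = 0.0080) and 0.072 in OLs (adjusted p = 0.19).

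Rps6 was at 72.7%, 114% and 112% of its 0 h level at 6 h in OPCs and at 81.0% and 99.0% in OLs, with slopes of 0.024 (adjusted p = 0.57) and -0.012 (adjusted p = 0.83) that lay near 0. Rpl30, at 64.3%, 116% and 85.1% in OPCs and 95.0% and 120% in OLs, had the lowest OPC slope apart from Rpl7l1 (0.0089, adjusted p = 0.86). Rpl22l1 and Rpl36al also had slopes near 0 in both cell types, and none passed the test. Without the 6 h libraries 7 of 82 rose in OPCs, against 1.77% of all transcripts. Without OPC replicate 2 the count was 11 (against 1.79%), without OPC replicate 3 it was 29 (against 1.97%) and without OPC replicate 1 it was 54 (against 4.07%), with Rpl7l1 the transcript that fell each time. The median slope stayed between 0.096 and 0.13 in these fits. Without the 0 h libraries, a fit chosen after the data had been seen, 70 of 82 rose, against 4.77%.

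**Figure D5:**
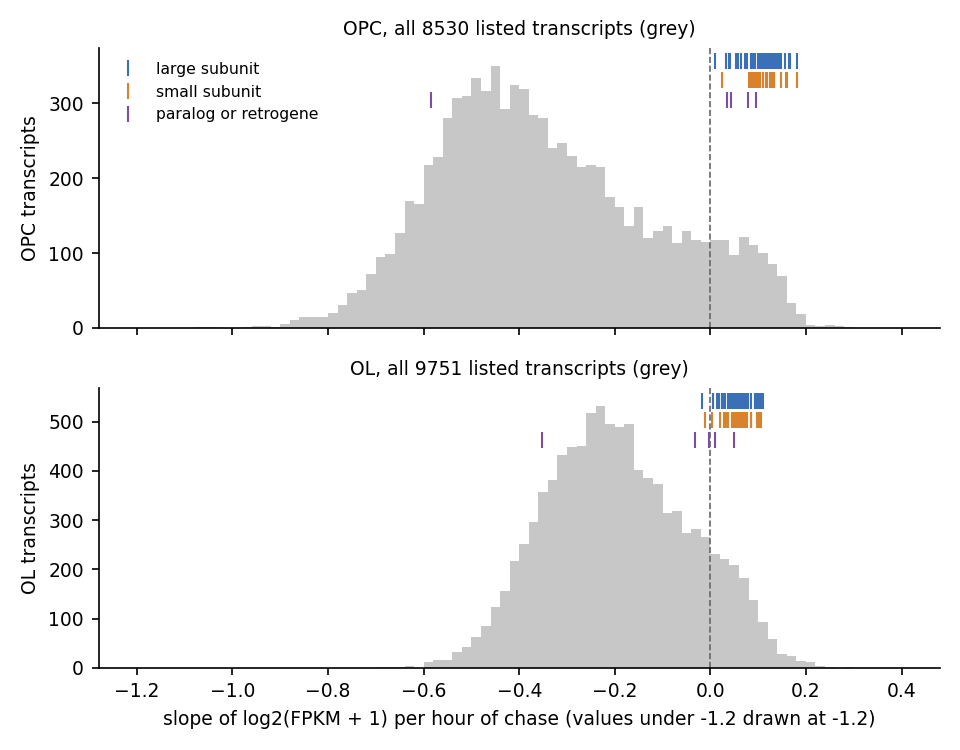
Slope of log2(FPKM + 1) per hour of chase (horizontal axis) for all listed transcripts of OPCs (top, n = 8530) and OLs (bottom, n = 9751) as grey counts per bin of 0.02, with ticks for ribosomal protein transcripts by subunit. All ticks but 1 lie at or right of -0.033, near the right edge of the grey distribution, and the tick apart is Rpl7l1.

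Other transcripts at the 6 h ceiling in every replicate give the nearest comparison. There were 1225 of them outside the set, with medians of 77.7%, 110% and 106% of 0 h at 6 h in OPCs and 99.6% and 92.1% in OLs. The ribosomal protein medians were above them in each replicate. Of these 1225, 282 rose and 168 fell in OPCs, and their median slope was 0.019. In the same fit 60 of the 82 rose and 1 fell, with a median slope of 0.11. In OLs 102 of the 1225 rose and 53 fell, while 1 of the 82 rose and 1 fell. The median OL slopes were 0.022 and 0.050. Of all transcripts, 4.31% rose and 81.7% fell in OPCs, and 1.50% rose and 68.4% fell in OLs.

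With each library centred on the median of its transcripts, which removes the library scale, 81 of 82 ribosomal protein transcripts rose in OPCs (against 39.8% of all transcripts) and 81 of 82 in OLs (against 31.2%), with median slopes of 0.55 and 0.28. Rpl7l1 fell in both. Centring moved the median slope of all transcripts from -0.38 to 0.061 in OPCs and from -0.20 to 0.033 in OLs, so these rises are relative to the typical transcript, which was lost during the chase.

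The slopes were compared between the cell types with 1 slope per replicate, to ask whether loss differed with differentiation. The median difference over the set, OL minus OPC, was -0.057 log2 units per hour, with a median standard error of 0.077, while over all transcripts it was 0.14. As deposited, 0 of 82 had a lower slope in OLs in the limma test (0.0856% of all transcripts did) and 1 had a higher one, Rpl7l1, against 23.7% of all transcripts. Its slopes were -0.58, -0.62 and -0.56 in OPCs and -0.38 and -0.32 in OLs, a difference of 0.23 (SE 0.076, adjusted p = 0.043) in groups that did not overlap, and the loss was slower in OLs. At an unadjusted p under 0.05 the count was also 1. The call on Rpl7l1 was lost without any single replicate, with adjusted p up to 0.86 over the alternatives.

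The comparison turned on the scale. With libraries centred on their medians, 63 of 82 had a lower slope in OLs, against 9.93% of all transcripts, with a median difference of -0.27, and 0 had a higher one, against 2.43%, so that the call on Rpl7l1 was lost. Centring moved the median difference of all transcripts from 0.14 to -0.068. Relative to the typical transcript, ribosomal protein transcripts thus had higher slopes in OPCs than in OLs. The typical transcript itself fell faster in OPCs, at a median slope of -0.38, against -0.20 in OLs. Centring thus raised slopes by more in OPCs, and on the deposited scale 0 of 82 were lower in OLs. At 6 h the percent of the 0 h level was lower in both OL replicates than in all 3 OPC replicates for 16 of the 82, against 2.86% of all transcripts, and higher in both for 1, against 48.9%. Across the 81 transcripts without Rpl7l1, the slopes in OPCs and OLs had a Pearson correlation of 0.69 and a Spearman correlation of 0.67, given as a description of transcripts that share libraries. The share of AAA among lysine codons showed little relation to the slope difference (rho -0.10) and to the difference at 0 h (rho 0.17) across the same 81.

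Most other TOP mRNAs were at the ceiling too, 16 of 18 in all 5 replicates. In OPCs 5 rose and 2 fell, against 4.31% and 81.7% of all transcripts, and in OLs, against 1.50% and 68.4%, 2 rose, Tpt1 (0.13, adjusted p = 0.025) and Vim (0.18, adjusted p = 0.0058), and 2 fell. The transcripts that fell in both were Eif4b (-0.28 in OPCs and -0.14 in OLs) and Impdh2 (-0.14 and -0.23). Eef1a1 rose in OPCs (0.13, adjusted p = 0.0052). Fau and Rack1 were at the ceiling in all 5 replicates and rose in OPCs, with slopes of 0.13 and 0.12. Of the 72 mitochondrial ribosomal protein transcripts 11 were at the ceiling, against 16.1% of all transcripts, 54 fell and 1 rose in OPCs, against 81.7% and 4.31%, and 39 fell in OLs, against 68.4%. Their medians at 6 h were 25.8% to 29.2% of 0 h in OPCs and 39.7% and 59.3% in OLs.

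Of the transcripts of proteins that act on TOP mRNAs, all 9 that were listed fell in OPCs, where 81.7% of all transcripts did, and 8 fell in OLs, where 68.4% did. None of the 9 was at the ceiling in all 5 replicates. Larp1, which binds the TOP motif, was lower in OLs at 0 h, with means of 16.1 FPKM in OPCs and 7.08 FPKM in OLs (-1.09, adjusted p = 0.0085), and its slope was -0.60 in OPCs and -0.17 in OLs. Eif4ebp1, which mTOR phosphorylates to release Eif4e, was at means of 31.6 and 6.22 FPKM (-2.24, adjusted p = 0.0014). Eif4ebp2 was also lower (-0.80, adjusted p = 0.036), while Mtor was at 19.2 and 19.8 FPKM (adjusted p = 0.91). Of the 6 chaperones of single ribosomal proteins that were listed, 6 fell in OPCs and 4 in OLs, against the same shares of all transcripts, and Grwd1, which escorts Rpl3, was lower in OLs at 0 h (-1.11, adjusted p = 0.016).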

How the data were processed

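Per the methods and labels, adapters were clipped (fastx_clipper) and reads mapped to GRCm38 (mm10) by the authors with HISAT2 2.1.0, who then tabulated FPKM with StringTie 1.3.5 and ballgown over canonical coding transcripts of GENCODE vM9. The deposited FPKM were scaled by the authors to 5-EU spike-ins. The 0 h columns carry other decimals than the later ones, so whether they were scaled is uncertain. Transcripts under 1 FPKM at 0 h had been removed. Half-lives (h), other values deposited by the authors, came from a single exponential fitted by least absolute deviations, with a ceiling of 6 h; 99.08% lay within 0.05 h of a refit.

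Here limma 3.58.1 (R 4.3.3) was fitted across all transcripts to log2(FPKM + 1) or log2 half-lives, with Benjamini-Hochberg adjusted p under 0.05 as the threshold. The count of reads is unknown, so no counting error is given, and a fold on log2(FPKM + 1) understates low levels. Replicates were biological per the study. The fits were tested on simulated data. Genes named were the 10 largest called changes in each direction, the 5 highest and 5 lowest at 0 h, the 5 shortest half-lives (only Rpl7l1 was below the ceiling), fixed members, paralog pairs and the lists described. Rpl38, Rps28, Rpl30, Rpl31, Rpl23 and Rps20 fall outside this rule and were named after their values were seen. Members and lists were chosen with earlier results of these data known. Alternatives were another pseudocount (0.1 FPKM), a minimum mean of 5 FPKM, other scalings, a replicate block, fits without the 6 h or 0 h libraries and fits without each replicate. Positions came from GENCODE M21 and RefSeq (GRCm38.p6). Sequences on chromosome 18 were not printed, and results on some single genes are not reported here.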

Additional observations from a re-analysis of the deposited data

Results flagged for a closer look

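The 9 results below stood out because the slope of log2(FPKM + 1) over the chase differed between OLs and OPCs in the limma test of the difference, each with less loss in OLs. Over all transcripts 23.7% were called in this direction, so the count is described and not read as particular to ribosomal genes.

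Among the 82 ribosomal protein transcripts this was Rpl7l1 alone, with 0.23 log2 units per hour (adjusted p = 0.043), past the threshold in 3 of 12 alternatives. Among the proteins that act on TOP mRNAs, Larp4b differed by 0.51 (adjusted p = 0.0044), Larp1 by 0.43 (adjusted p = 0.0073), Mtor by 0.36 (adjusted p = 0.012) and Rptor by 0.36 (adjusted p = 0.016). Among the chaperones of ribosomal proteins, Heatr3 differed by 0.44 (adjusted p = 0.0060), Grwd1 by 0.42 (adjusted p = 0.0060), Pdcd2l by 0.36 (adjusted p = 0.0086) and Tsr2 by 0.25 (adjusted p = 0.047). Of 12 alternatives, Larp4b was past the threshold in 10, Grwd1 in 9, and Larp1 and Pdcd2l in 8. Heatr3, Mtor and Rptor were past it in 7 and Tsr2 in 4. Over all 12 the limma adjusted p of Tsr2 reached 0.78. Both OL slopes were above all 3 OPC slopes in each of these transcripts. They were picked by the test on these same slopes, so this adds no support. The median difference of all transcripts was 0.14 in the same direction. None of these transcripts differed in half-life by limma, with adjusted p from 0.056 for Larp1 to 0.64 for Larp4b. Several were at the floor in OPCs at 6 h. Pdcd2l was at 0% of its 0 h level in replicates 1, 2 and 3, Larp4b in 1 and 3, Grwd1 in 2 and 3, and Heatr3 in 1. No group had 4 or more samples, so single samples were not tested as outliers.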

How the results depend on the processing

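At 0 h, quantile normalization gave 18 ribosomal protein transcripts lower in OLs in place of 49 (17.4% of all transcripts were lower in that fit) and moved the median difference from -0.80 to -0.38, with Eef2 at 0.33, Rpl8 at 0.15, Rplp1 at 0.083 and Rps9 at 0.061, all turned positive. Fits without 1 replicate gave 1 to 59 lower, against 5.83% to 16.2% of all transcripts. With a replicate block the count was 26, against 11.8%. The OL replicates match 2 of the OPC replicates, but the matching numbers are not given, so the numbers were not taken as pairing, and same-numbered OPC and OL samples had correlations of 0.059 and 0.010 at 0 h, -0.026 and -0.10 for slopes, and -0.0016 and -0.11 for half-lives. Centring replicates on their medians moved the median half-life difference from 0 to -0.90. For the 81 transcripts at the ceiling in every replicate, that value was set by the medians of all transcripts alone. For OPC slopes, the count rising was 60, and 7 without the 6 h libraries, and 11 to 54 without 1 replicate. The median slope was 0.55 with centred libraries and 0.16 without the 0 h libraries, an alternative chosen after seeing the data. In OLs, 1 rose, 81 with centred libraries (median 0.28), and 0 with a pseudocount of 0.1, without the 6 h libraries, with no replicate block or without either replicate (0 to 0). Without the 0 h libraries the OL median was 0.090. Centring turned positive the OL slopes of Eif4b (0.099), Impdh2 (0.0080), Rpl22l1 (0.20), Rpl36al (0.23) and Rps6 (0.22), and the OPC slopes of Eif4b (0.16) and Impdh2 (0.30). For the slope difference, Rpl7l1 was called higher in OLs as deposited, but the count was 0 with a pseudocount of 0.1, centred libraries, no 0 h libraries, a replicate block or any 1 replicate left out (0 to 0). Centring gave 63 lower (median -0.27), and the median was -0.020 without the 6 h libraries. Apart from the half-life difference at the ceiling, the causes of these changes were not tested. Where libraries were left out, the smaller number of samples and the library removed cannot be told apart. A fit without 1 OL replicate assumes that the remaining sample varies like the OPC samples. Over the 264 results on named genes and 2653 alternatives, 2288 kept direction and side of the threshold, 257 lost the call, 97 gained one and 11 changed sign.

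Depth is unknown, half-lives over 6 h cannot be told apart, no background was subtracted, 2 OL replicates limit every comparison between cell types, and reads shared with pseudogenes leave levels of single transcripts uncertain.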
